A study of Mus musculus with 6 samples.

Results

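Genes recurrently altered in the T-cell form of acute lymphoblastic leukemia (T-ALL) were followed in a cell model of the T-ALL-associated RPL10 R98S mutation, which replaces arginine by serine in a protein of the large ribosomal subunit. The members were the 9 genes Notch1, Fbxw7, Phf6, Cnot3, Il7r, Ezh2, Suz12, Bcl11b and Dnm2, found by their symbols. The rule that picks them by symbol uses no measured value, but the 9 genes were chosen with earlier results of these data known. All 9 had a row among the 41255 genes of the table. The cells were Ba/F3, an interleukin-3-dependent mouse line that the labels call lymphoid. They had received a retroviral human RPL10 cDNA, WT in 3 cultures (clones 28, 29 and 36) and R98S in the other 3 (clones 11, 13 and 35). Endogenous Rpl10 was targeted by a short hairpin RNA in both groups, and all cultures were exposed briefly to cycloheximide before polyadenylated RNA was sequenced. Each culture grew from a single cell, so each library stands for 1 clone, and differences that arose between single cells cannot be told apart from effects of the mutation beyond what 3 clones per group allow.

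These genes act at distinct points of early T cell development. NOTCH1 is a surface receptor that is cleaved upon ligand binding and then works in the nucleus with the DNA-binding protein RBPJ, and FBXW7 is the substrate-binding part of a ubiquitin ligase that marks active NOTCH1, MYC and other proteins for degradation. IL7R carries the interleukin-7 survival signal to JAK1, JAK3 and STAT5. EZH2 and SUZ12 are core subunits of polycomb repressive complex 2 (PRC2), which methylates histone H3 and keeps genes silent. PHF6 is a chromatin-bound PHD finger protein, BCL11B a zinc finger transcription factor of the T lineage, CNOT3 a subunit of the CCR4-NOT complex that shortens mRNA poly(A) tails, and DNM2 (dynamin 2) a GTPase that severs endocytic vesicles from the membrane.

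The libraries held between 21786776 and 24204991 reads assigned to genes. Values are normalized read counts, that is, reads divided by the size factor of the library, and 11550 genes with a mean of at least 10 were tested with limma on log2(normalized count + 1). Differences are given as log2 ratios (log2 fold changes of normalized count + 1), R98S over WT, so that negative values mean less RNA in R98S clones. A gene was called at an adjusted p under 0.1, the false discovery rate used by the study. This held for 23.9% of the tested genes, 10.7% being higher and 13.1% lower in R98S clones. The labelled cell type was checked against marker genes. Ptprc, which encodes the leukocyte antigen CD45, lay between 3366 and 14068 normalized counts, and the B cell receptor component gene Cd79a between 996 and 1507. Of 10 T cell markers, 5 had at most 3 reads in every library, among them Cd3e and Cd4. Of 10 B cell precursor markers, 6 did so, among them Pax5. Of 10 mast cell and myeloid markers 4 did so, among them Kit, while Gata2 was abundant in that list (13577 to 29516). The mast cell genes Cpa3 (10.2 to 389) and Ms4a2 (32.7 to 146) were also detected. The other T and B lineage markers were not all absent, as the T cell genes Lck, Cd247 and Cd3d reached 112, 89.8 and 87.3 normalized counts and the B cell receptor gene Cd79b reached 705.

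The promoters of 8 of the 9 genes were found in RefSeq (GRCm38.p6). Phf6 was not among them. The 250 bases upstream of the start are shown for both members that fell in R98S clones, for Il7r, which had almost no reads, and for Rbpj, the DNA-binding partner of NOTCH1, which also fell. Capitals mark the letters TGGGAA (an RBPJ core), GGGCGG (a GC box) and CCAAT, each searched on both strands.
Notch1 (chr2:26503823-26504072, minus strand): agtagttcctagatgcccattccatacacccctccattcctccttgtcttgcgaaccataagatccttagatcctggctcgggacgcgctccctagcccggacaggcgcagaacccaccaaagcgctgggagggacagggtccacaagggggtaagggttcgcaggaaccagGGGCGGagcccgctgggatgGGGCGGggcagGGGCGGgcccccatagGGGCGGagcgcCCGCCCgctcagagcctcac
Dnm2 (chr9:21424658-21424907, plus strand): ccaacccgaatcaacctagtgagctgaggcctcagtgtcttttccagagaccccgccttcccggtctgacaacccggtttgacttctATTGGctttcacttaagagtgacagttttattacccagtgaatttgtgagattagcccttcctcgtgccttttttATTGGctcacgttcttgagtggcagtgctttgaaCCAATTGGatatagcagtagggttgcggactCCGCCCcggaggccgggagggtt
Il7r (chr15:9529877-9530126, minus strand): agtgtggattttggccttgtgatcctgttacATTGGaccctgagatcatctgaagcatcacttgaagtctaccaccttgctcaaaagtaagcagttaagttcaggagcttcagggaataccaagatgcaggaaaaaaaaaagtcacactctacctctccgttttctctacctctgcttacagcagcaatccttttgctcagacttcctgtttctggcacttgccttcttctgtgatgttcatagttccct
Rbpj (chr5:53590096-53590345, plus strand, the first of the windows listed for this gene): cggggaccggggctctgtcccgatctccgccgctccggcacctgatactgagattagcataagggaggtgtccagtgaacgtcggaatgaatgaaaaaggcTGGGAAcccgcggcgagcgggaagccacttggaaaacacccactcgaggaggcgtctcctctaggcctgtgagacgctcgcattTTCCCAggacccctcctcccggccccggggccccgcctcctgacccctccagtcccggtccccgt

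The Notch1 window held 5 GC boxes, 16 CpG dinucleotides and 66% G and C. The Dnm2 window held 4 matches to CCAAT, of which the last pair overlaps on opposite strands, and 1 GC box. The Il7r window held 1 CpG and 44% G and C, compared with medians of 6 CpG and 52.4% over all 32851 windows. TGGGAA was found at 2 places in the Rbpj window and in neither the Notch1 nor the Dnm2 window. It occurred in 21.6% of all windows, the GC box in 32.7% and CCAAT in 33.8%. The RefSeq starts used for Notch1, Il7r and Rbpj lie inside the longer spans that GENCODE gives these genes. Such matches describe letters and not occupied sites.

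Of the 9 driver genes, 7 passed the expression filter, and 2 of these, Notch1 and Dnm2, fell in R98S clones. None of the 7 rose. The median log2 ratio of the 7 genes was -0.35, compared with -0.01 over all tested genes, with 6 negative values and 1 positive where 50.9% of all tested genes were negative. Of the 6, Phf6 and Cnot3 changed sign in some alternatives. The called share was 28.6%, close to the 23.9% of all tested genes. For 3 of the 7 genes (Notch1, Ezh2 and Dnm2) the groups did not overlap, against 37.3% of all tested genes. In these 3 the R98S clones were the lower ones, as in 19.2% of all tested genes, and in no member were they the higher ones, as in 18.1%. With edgeR on the recovered reads the same 2 members were called, against 23.8% of all tested genes, and with DESeq2 3 members were, Fbxw7 being added, against 25.6%. All the differences were measured in bulk RNA, where fewer cells with a transcript and less transcript per cell cannot be told apart.

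**Figure D1:**
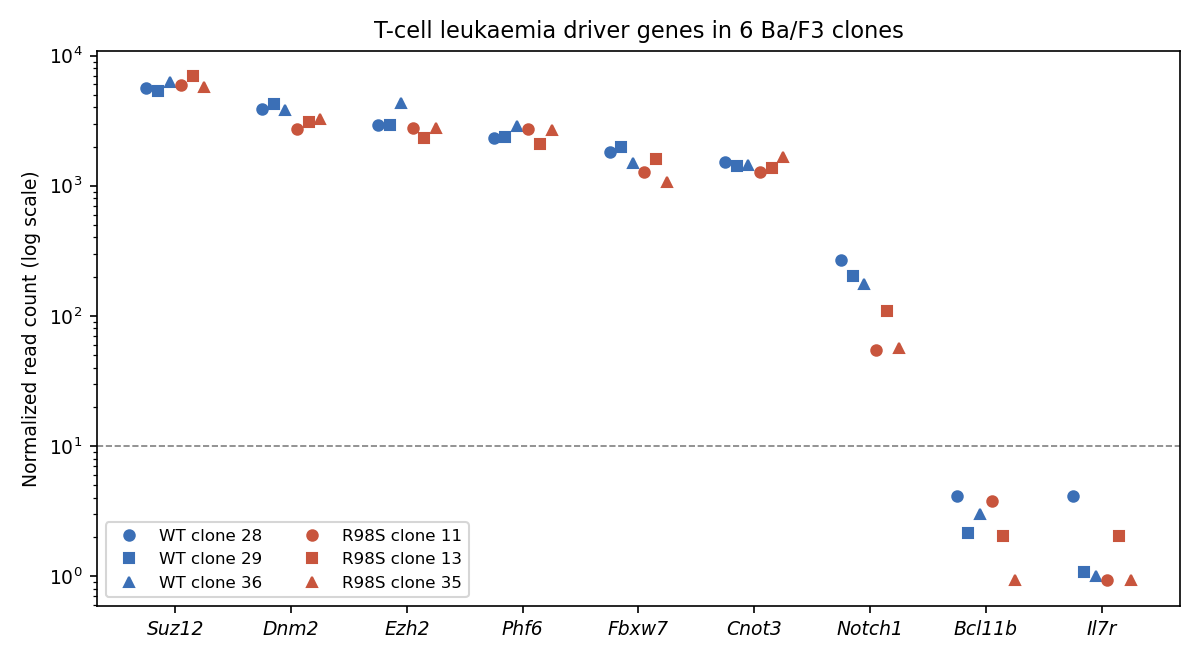
Normalized read count of the 9 driver genes (log axis) in each of the 6 clones, ordered by mean, with WT clones in blue and R98S clones in red; the dashed line marks the mean of 10 needed for testing. Notch1 in R98S clones lay between 54.4 and 109, below all WT clones (175 to 270.3), and Bcl11b and Il7r lay under 5 in every clone.

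Notch1 (chromosome 2, 26457903 to 26516663, minus strand, GRCm38) had normalized counts of 270.3, 202 and 175 in the WT clones 28, 29 and 36. In the R98S clones 11, 13 and 35 it had 54.4, 109 and 56.4. The groups did not overlap, and R98S clone 13 lay nearest to the WT clones. The mean fell from 216 ± 49.1 to 73.4 ± 31.1 (SD, n = 3), so that WT clones held 2.94 times as much. The log2 ratio was -1.60 (SE 0.31, limma adjusted p = 0.0157), larger in size than that of 96% of tested genes. The call held in each fit that left out 1 clone, with log2 ratios between -1.92 and -1.42 and adjusted p up to 0.0626. Notch1 is a weakly expressed gene here, as its WT values rest on 175 to 264 reads and its R98S values on 58 to 107. Its exons share 1068 bases with 0610009E02Rik and 414 with Gm13568 on the opposite strand, and neither had more than 1 read in any library. The median log2 ratio of the 30 tested genes nearest to Notch1 was 0.15.

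Compared per kilobase of exon, Notch1 was a minor receptor in these cells. Its mean level was 15.2 normalized counts per kb in WT and 5.15 in R98S clones, while that of Notch2, a related receptor, was 551 and 478. Notch3 lay at 7.24 and 7.11, and Notch4 at 2.81 and 1.86. The clone ranges of Notch2 (422 to 602) and Notch1 (3.82 to 19) were far apart, whereas that of Notch1 overlapped Notch3 (5.38 to 9.51). Notch2 itself had a log2 ratio of -0.21 (95% interval -0.48 to 0.06, limma adjusted p = 0.267).

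Of the 9 Notch ligand and receptor genes, 6 were tested, and Notch1 was the sole call. The ligand genes Dll1, Dll3 and Jag1 had at most 6 reads in any library. Of 16 genes that process or modify Notch, 2 rose, 2 fell and 12 were not called. Adam10, which encodes the protease that makes the first activating cut, fell from 7936 ± 414 to 5334 ± 879 (log2 ratio -0.58, limma adjusted p = 0.0242). Pofut1, which encodes the enzyme that adds O-fucose to the receptor, rose from 1296 ± 195 to 1804 ± 131 (log2 ratio 0.49, limma adjusted p = 0.046). Its call was lost without WT clone 28 (adjusted p = 0.159), WT clone 29 (0.153) or R98S clone 35 (0.122). Mfng, a fringe glycosyltransferase gene, had a log2 ratio of 0.42 (limma adjusted p = 0.0784), and its call was lost whichever of the 6 clones was left out (adjusted p between 0.104, with WT clone 36 left out, and 0.25, with WT clone 29 left out). Numbl, a relative of the Notch antagonist gene Numb, fell with a log2 ratio of -0.80 (limma adjusted p = 0.0896), and that call was lost in 5 of the 6 fits without 1 clone, all but the fit without R98S clone 13 (adjusted p between 0.116, with WT clone 28 left out, and 0.218, with R98S clone 35 left out). The Numbl call was also lost with the shift of the nearest genes removed (-0.60, limma adjusted p = 0.202), with upper-quartile scaling (0.108), without the intensity trend (0.103), without the expression filter (0.129) and with edgeR (0.111).

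In the nuclear complex, Rbpj fell in R98S clones and the other 6 genes were not called. Rbpj (chromosome 5, 53466152 to 53657362, plus strand) had normalized counts of 11003, 13960 and 11469 in the WT clones 28, 29 and 36. It had 4313, 6119 and 4688 in the R98S clones 11, 13 and 35. The highest R98S clone was thus below the lowest WT clone by a wide gap, and as for Notch1 it was clone 13. The log2 ratio was -1.28 (SE 0.16, limma adjusted p = 0.00296), and it stayed between -1.43 and -1.17 in the fits without 1 clone. The genes of the MAML co-activators were not called (Maml1 -0.30, Maml2 0.16 and Maml3 -0.17 on the log2 scale), though Maml1 was without R98S clone 13 (-0.44, limma adjusted p = 0.0557).

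Canonical Notch target genes were nearly silent in both groups. Hes1 had at most 3 reads and Dtx1 at most 5 in any library, and Hes5 had none. Of 12 target genes, 9 were too low to be tested, 7 of which had at most 3 reads in every library. Whether they differ was not detectable at this depth. Myc, a target of NOTCH1 in T-ALL, was abundant and had 10556 ± 1476 normalized counts in WT and 9277 ± 1131 in R98S clones (log2 ratio -0.18, 95% interval -0.51 to 0.14, limma adjusted p = 0.405). Igf1r, the gene of the insulin-like growth factor receptor, was called of the 3 targets tested, and it rose from 782 ± 20.5 to 1716 ± 509 (log2 ratio 1.09, limma adjusted p = 0.0119).

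Fbxw7 (chromosome 3, 84815268 to 84979198, plus strand) had normalized counts of 1818, 1985 and 1505 in the WT clones 28, 29 and 36. In the R98S clones 11, 13 and 35 it had 1276, 1597 and 1072. R98S clone 13 exceeded WT clone 36, so the groups overlapped. The log2 ratio was -0.44 (SE 0.17, limma adjusted p = 0.122), short of the threshold, with a 95% interval of -0.83 to -0.05. Whether the threshold was passed depended on these 2 clones and on the method. The threshold was passed without R98S clone 13 (-0.59, limma adjusted p = 0.0446) and without WT clone 36 (-0.55, limma adjusted p = 0.0872), and also with DESeq2 on recovered reads (-0.43, adjusted p = 0.0982). Of the 6 genes of the ligase and its deubiquitinases, 1 was called. This was Usp28, whose product opposes FBXW7, with a log2 ratio of -0.37 (limma adjusted p = 0.0536). The Usp28 call was lost without WT clone 28 (adjusted p = 0.132), 29 (0.166) or 36 (0.112) and without R98S clone 35 (0.115). The core subunit genes Skp1a, Cul1 and Rbx1 were not called, at -0.05, -0.22 and -0.28 on the log2 scale, though Rbx1 was with the shift of the nearest genes removed (-0.32, limma adjusted p = 0.0877).

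Among 8 tested genes whose proteins FBXW7 marks for degradation, 2 rose and 1, Notch1 itself, fell. Jun, which encodes an AP-1 transcription factor, rose from 204 ± 22.5 to 745 ± 218 (log2 ratio 1.83, limma adjusted p = 0.00324). Ccne2, a cyclin E gene, had a log2 ratio of 0.76 (limma adjusted p = 0.0968) that lost its call without WT clone 28 (adjusted p = 0.195) or 29 (0.259) and without R98S clone 11 (0.271) or 35 (0.226). It was 0.47 (adjusted p = 0.233) once the shift of the 30 nearest genes was removed in each library. The exons of Ccne2 share 609 bases with Ints8 on the opposite strand. Ints8 had 1236 to 2274 normalized counts and was itself called higher (log2 ratio 0.63, limma adjusted p = 0.0253). Whether reads of Ints8 were counted for Ccne2 was not tested. Since these are mRNA levels, they do not show how much of each protein was degraded.

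**Figure D2:**
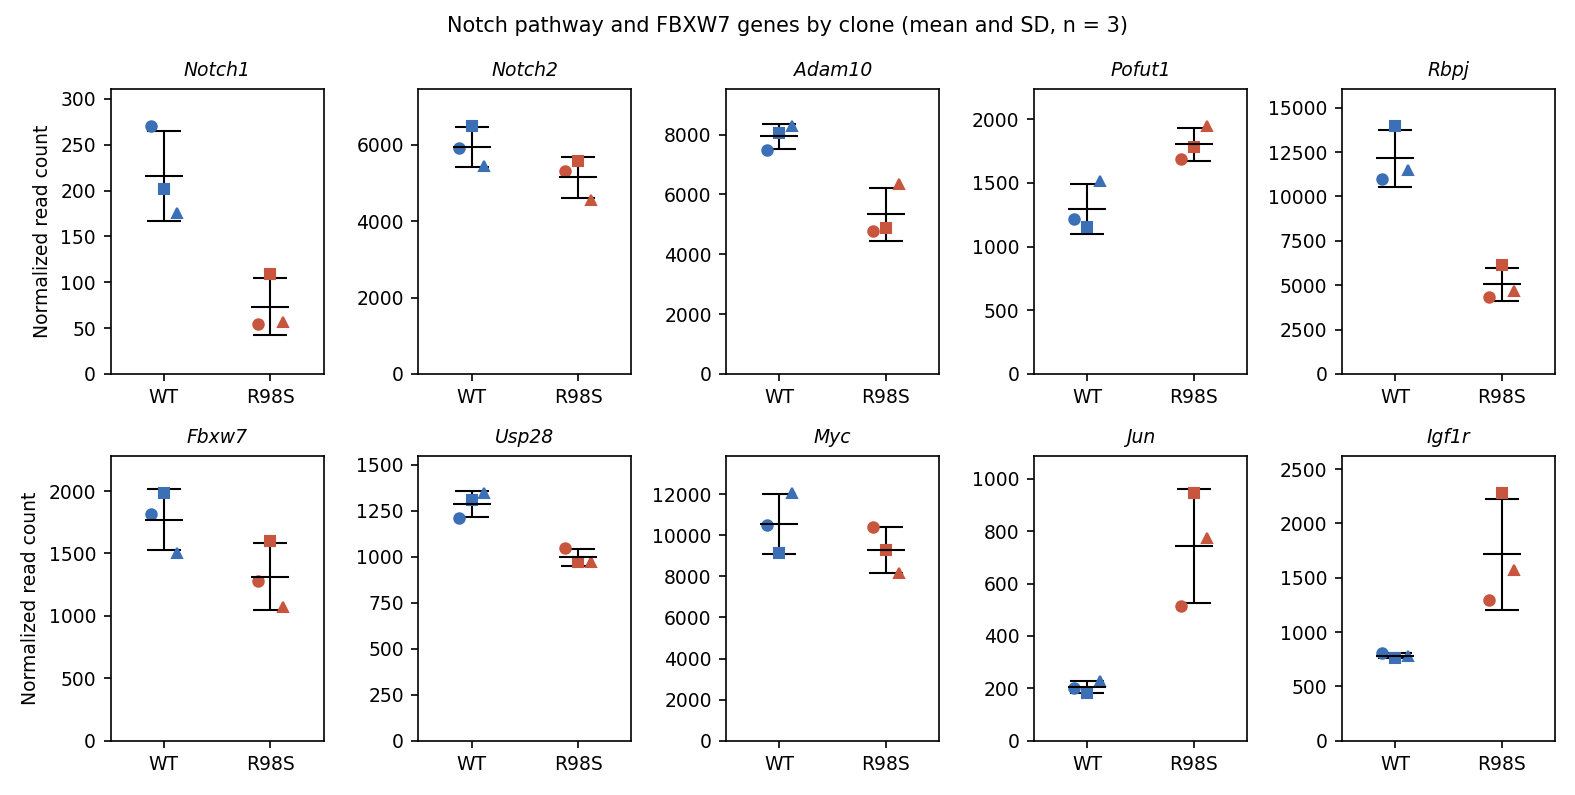
Normalized read count of 10 genes of the Notch pathway and of FBXW7 function in WT (blue) and R98S (red) clones; each point is 1 clone and the bars give the mean and SD of 3. Rbpj fell from 12144 to 5040 on average and Notch1 from 216 to 73.4, Jun and Igf1r rose, and Fbxw7 and Myc overlapped between the groups.

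The PRC2 members differed in their values but neither was called. Ezh2 (chromosome 6, 47530139 to 47595341, minus strand) had normalized counts of 2922, 2922 and 4352 in the WT clones 28, 29 and 36, and Suz12 (chromosome 11, 79993106 to 80034123, plus strand) had 5679, 5362 and 6260. In the R98S clones 11, 13 and 35, Ezh2 had 2754, 2321 and 2784 and Suz12 had 5889, 6967 and 5734. For Ezh2 all R98S values were below all WT values, yet the WT mean of 3399 ± 826 was pulled up by clone 36. The log2 ratio of Ezh2 was -0.35 (SE 0.17, limma adjusted p = 0.197), and -0.16 without WT clone 36 (limma adjusted p = 0.413). For Suz12 it was 0.10 (95% interval -0.16 to 0.37, limma adjusted p = 0.586), negative once the shift of the nearest genes was removed (-0.11), and the groups overlapped.

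Of the 6 core subunit genes of PRC2, 1 rose (Eed), 1 fell (Ezh1) and 4 were not called. Eed, which encodes the subunit that binds the methylated histone tail, had normalized counts of 1116, 1147 and 1264 in the WT clones 28, 29 and 36. It had 2292, 1922 and 2283 in the R98S clones 11, 13 and 35. Every R98S clone was well above every WT clone, with a log2 ratio of 0.88 (SE 0.12, limma adjusted p = 0.00392) that stayed between 0.83 and 0.96 when 1 clone was left out. The 30 nearest tested genes had a median of 0.27. With the shift of these genes removed in each library, the log2 ratio of Eed was 0.66 (limma adjusted p = 0.0135). Its exons share 261 bases with E230029C05Rik on the opposite strand. Eed is itself altered in some T-ALL cases. Ezh1, the gene of the alternative methyltransferase subunit, fell from 1314 ± 141 to 897 ± 160 (log2 ratio -0.56, limma adjusted p = 0.0474). That call was lost without WT clone 29 (adjusted p = 0.123) or 36 (0.11) and without R98S clone 11 (0.135) or 35 (0.114). Per kilobase of exon, Eed went from 307 to 566 normalized counts while Ezh2 went from 509 to 392, so that Eed lay below Ezh2 in WT and above it in R98S clones on average.

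Of 5 tested accessory subunit genes, Jarid2 fell and the others were not called. Jarid2, which encodes a factor that helps to recruit PRC2, had 837 ± 38.1 normalized counts in WT and 532 ± 63.0 in R98S clones (log2 ratio -0.66, limma adjusted p = 0.0176). The genes of the demethylases that reverse the PRC2 mark, Kdm6a and Kdm6b, were not called (0.08 and -0.55 on the log2 scale), though Kdm6b was without R98S clone 13 (-0.81, limma adjusted p = 0.0261), and both were with the shift of the nearest genes removed (Kdm6a 0.23, limma adjusted p = 0.0939, and Kdm6b -0.57, 0.0954).

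Phf6 and Cnot3 gave no difference beyond the spread between clones. Phf6 (chromosome X, 52912266 to 52956943, plus strand) had normalized counts of 2316, 2359 and 2862 in the WT clones 28, 29 and 36. It had 2709, 2079 and 2671 in the R98S clones 11, 13 and 35. The log2 ratio of Phf6 was -0.02 (95% interval -0.34 to 0.31, limma adjusted p = 0.944). Its sign was not stable, being positive with libraries scaled to the same total or upper quartile, with the shift of the nearest genes removed, and without WT clone 36 or R98S clone 13. Cnot3 (chromosome 7, 3645268 to 3661109, plus strand) had 1522, 1425 and 1431 in WT and 1271, 1371 and 1653 in R98S clones, in the same order of clones. The R98S clones thus lay on both sides of the WT clones, whose SD was 54.2 against 198. The log2 ratio of Cnot3 was -0.04 (95% interval -0.32 to 0.25, limma adjusted p = 0.872), with the opposite sign under upper-quartile scaling and without R98S clone 11. Its exons share 433 bases with Leng1 on the opposite strand.

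Within the CCR4-NOT complex, 1 of 11 genes rose and 1 fell. Cnot1, which encodes the scaffold subunit, went from 13169 ± 367 to 9285 ± 740 normalized counts (log2 ratio -0.51, limma adjusted p = 0.0172). The 30 tested genes nearest to it on chromosome 8 had a median log2 ratio of -0.64. With the shift of these genes removed in each library, Cnot1 was at 0.05 (limma adjusted p = 0.742). Cnot11 rose with a log2 ratio of 0.31 (limma adjusted p = 0.0878), its neighbours had a median of 0.27, and after their shift was removed it was at 0.00 (-0.0036, limma adjusted p = 0.982). The Cnot11 call was also lost without WT clone 28 (adjusted p = 0.254), 29 (0.212) or 36 (0.135) and without R98S clone 11 (0.208) or 13 (0.112). Both log2 ratios were thus close to those of the genes around them.

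Of 7 tested genes of factors that recruit CCR4-NOT to mRNAs, 2 fell and 5 were not called, with a median log2 ratio of -0.12. Btg1, an antiproliferative gene that is itself mutated in lymphoid cancers, had normalized counts of 1036, 1378 and 1190 in the WT clones 28, 29 and 36. It had 373, 519 and 313 in the R98S clones 11, 13 and 35. The log2 ratio of Btg1 was -1.60 (SE 0.20, limma adjusted p = 0.00326). Zfp36l2, the gene of a protein that binds AU-rich elements and restrains thymocyte proliferation, fell from 14880 ± 3074 to 6366 ± 1052 (log2 ratio -1.22, limma adjusted p = 0.00567). For neither did the 30 nearest genes move with it, as their medians were -0.05 and -0.07.

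**Figure D3:**
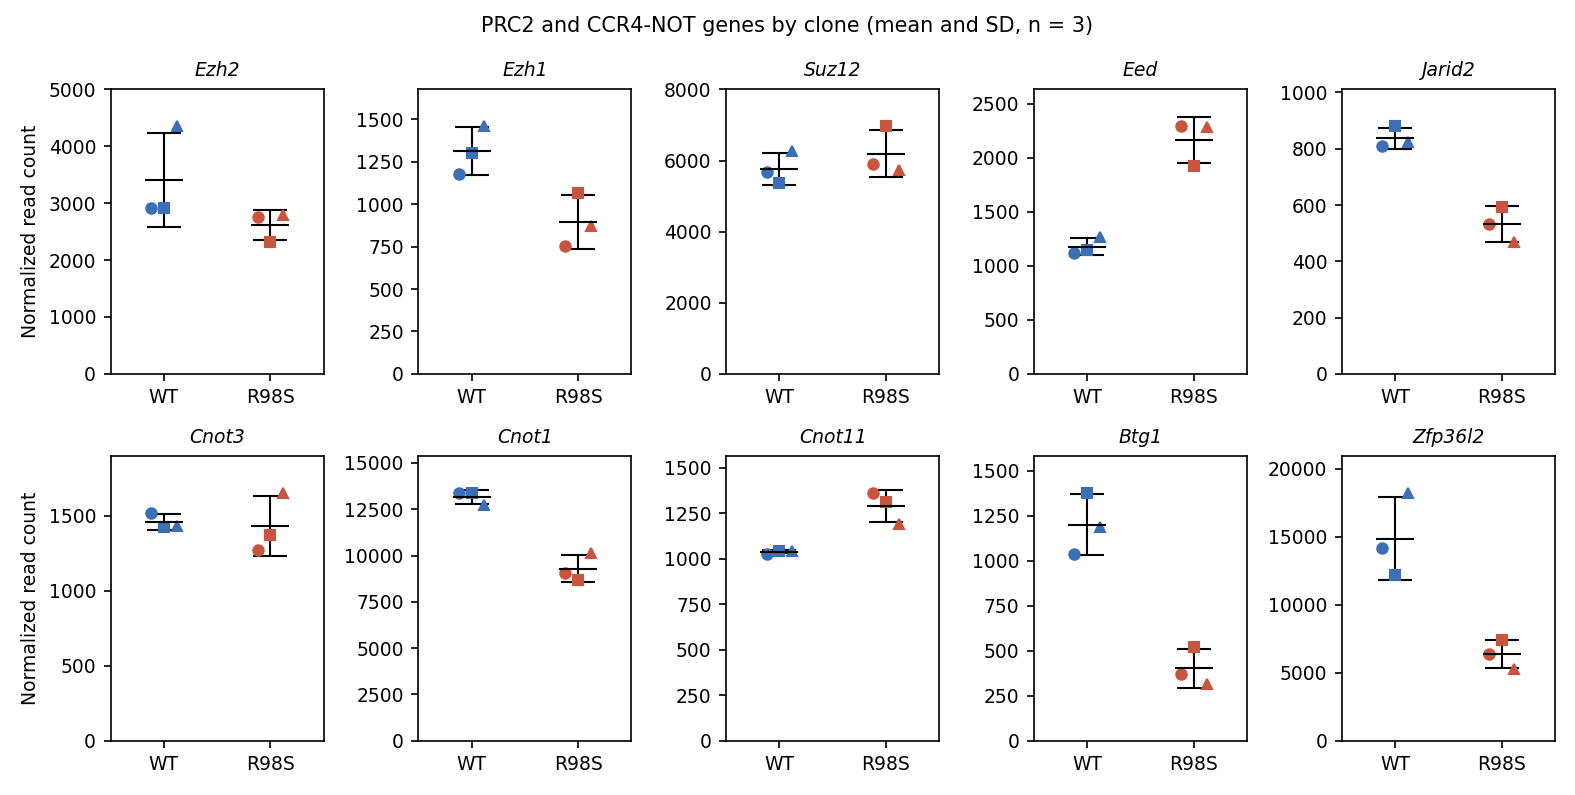
Normalized read count of 10 genes of PRC2 and of the CCR4-NOT complex and its recruiting factors in WT (blue) and R98S (red) clones; each point is 1 clone and the bars give the mean and SD of 3. Eed rose from 1176 to 2166, Btg1 fell from 1201 to 402, and Suz12 and Cnot3 overlapped between the groups.

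Il7r and Bcl11b, which mark lymphoid progenitors and the T lineage, were almost without reads. Il7r (chromosome 15, 9505788 to 9530176, minus strand) had 4, 1 and 1 reads in WT clones 28, 29 and 36 and 1, 2 and 1 in the R98S clones 11, 13 and 35. Bcl11b (chromosome 12, 107910403 to 108003602, minus strand) had 4, 2 and 3 reads in WT and 4, 2 and 1 in R98S clones. Both were far under the mean of 10 needed for testing, and with so few reads no ratio is given for either. Without the expression filter neither was called (limma adjusted p = 0.781 for Il7r and 0.691 for Bcl11b). The paralog Bcl11a was likewise low, between 1.02 and 5.12 normalized counts.

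Of 9 genes of interleukin-7 receptor signalling, receptor chains included, 6 were expressed enough to be tested, and none of these was called. Il2rg, which encodes the shared gamma chain, had 849 ± 161 normalized counts in WT and 826 ± 274 in R98S clones (log2 ratio -0.08, 95% interval -0.69 to 0.52, limma adjusted p = 0.853). Jak3, the kinase gene that pairs with it, had 1139 ± 162 and 819 ± 233 (log2 ratio -0.50, limma adjusted p = 0.139). R98S clone 13 overlapped the WT clones for Jak3, and without that clone the log2 ratio was -0.72 (limma adjusted p = 0.0308). Of 8 tested genes of proteins that share complexes with BCL11B or PHF6, or are PHF6 itself, only Chd4, the nucleosome remodelling ATPase gene, was called. It rose with a log2 ratio of 0.30 (limma adjusted p = 0.0693). The Chd4 call held in the fit without R98S clone 13 and was lost without each of the other 5 clones, with adjusted p between 0.108 (WT clone 36 left out) and 0.232 (WT clone 28 left out).

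Dnm2 (chromosome 9, 21424908 to 21507759, plus strand) had 3850 normalized counts in WT clone 28, 4218 in clone 29 and 3799 in clone 36. In the R98S clones 11, 13 and 35 it had 2750, 3082 and 3230. The groups did not overlap. The mean was 3956 ± 229 in WT and 3021 ± 246 in R98S clones (SD, n = 3), so that R98S clones held 0.764 times as much. On the log2 scale the gene fell by 0.39 (SE 0.11, limma adjusted p = 0.0433). The direction was the same in each alternative tried, but the call was lost without WT clone 28 (-0.41, limma adjusted p = 0.131), without WT clone 29 (-0.34, 0.153) and without R98S clone 11 (-0.32, 0.122). Its exons share 207 bases with Tmed1 on the opposite strand, which had 179 to 248 normalized counts. The 30 nearest genes had a median log2 ratio of -0.08. Among the dynamin genes, Dnm2 and the mitochondrial fission gene Dnm1l were the ones expressed, at 742 and 592 normalized counts per kb of exon in WT clones, while Dnm1 and Dnm3 lay below 3 per kb in every clone. Dnm1l had a log2 ratio of -0.03 (limma adjusted p = 0.896).

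Several genes of proteins that bind dynamin at sites of endocytosis were lower in R98S clones. The list used here was chosen with earlier results of these data known, so its shares are descriptions only. Of 9 tested genes in the list of dynamins and their partners, Dnm2 included, 5 fell, none rose and 4 were not called, with a median log2 ratio of -0.56 against -0.01 over all tested genes, of which 13.1% were called lower. Apart from the dynamins, 4 of 7 tested partners fell, and Amph (-0.56), Pacsin2 (-0.25) and Itsn2 (0.03 on the log2 scale) were not called. Itsn1, which encodes the endocytic scaffold intersectin, had normalized counts of 1357, 966 and 269 in the WT clones 28, 29 and 36 and 26.3, 16.3 and 19.4 in the R98S clones 11, 13 and 35. It varied widely among WT clones and was still lower in every R98S clone, with a log2 ratio of -5.06 (SE 0.54, limma adjusted p = 0.0015). Bin1, which encodes the membrane-curving protein amphiphysin 2, fell from 1083 ± 218 to 606 ± 60.7 (log2 ratio -0.82, limma adjusted p = 0.0184). Snx9, a sorting nexin gene, fell from 124 ± 83.3 to 32.7 ± 10.6 (log2 ratio -1.74, limma adjusted p = 0.0434), a call that was lost without R98S clone 35 (-1.47, adjusted p = 0.123). The fifth was Sh3gl1, an endophilin gene, at -0.77 (limma adjusted p = 0.0195).

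**Figure D4:**
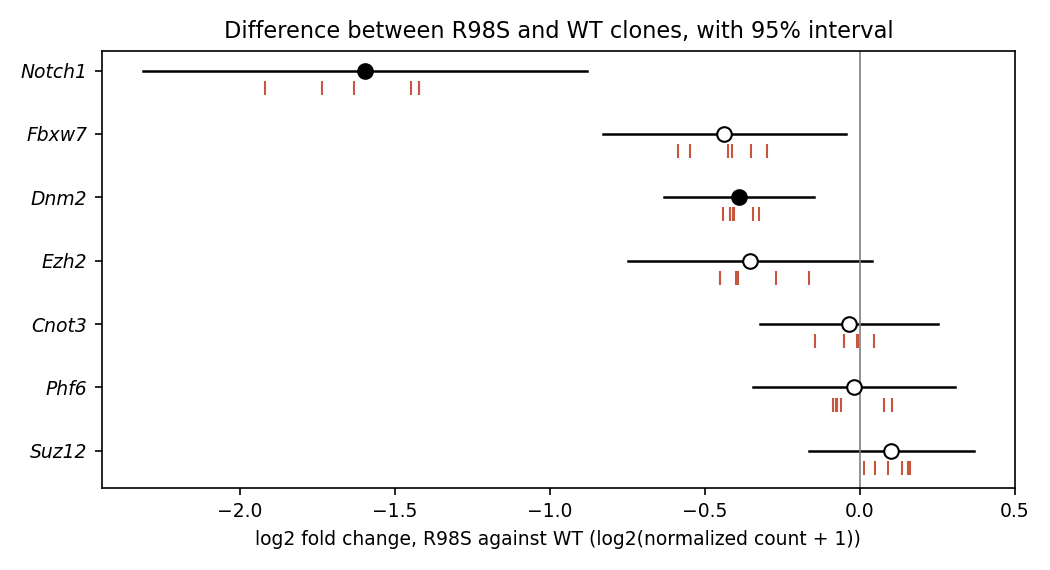
Log2 ratio of the 7 tested driver genes, R98S against WT, with the 95% interval of the limma fit (black line) and the values after leaving out each clone in turn (red ticks); filled circles mark an adjusted p under 0.1. Notch1 stands at -1.60 and Dnm2 at -0.39, and Fbxw7 and Ezh2 lie at -0.44 and -0.35 without a call.

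A wider list of 38 genes altered in T-ALL was compared with the 9. Of 33 tested, 1 rose and 6 fell, that is 21.2% called, close to the 23.9% of all tested genes, with a median log2 ratio of -0.12. The gene that rose was Eed. Lyl1, a basic helix-loop-helix oncogene, fell from 4616 ± 463 to 2091 ± 272 (log2 ratio -1.15, limma adjusted p = 0.00201). The 30 genes nearest to Lyl1 had a median log2 ratio of -0.38. With the shift of the nearest genes removed Lyl1 was at -0.81 (limma adjusted p = 0.00559). Lmo2, which encodes a LIM-domain adaptor of the same transcription complex, had a log2 ratio of -1.07 (limma adjusted p = 0.0693). The Lmo2 call was lost without WT clone 28 (adjusted p = 0.169) or 36 (0.161) and without R98S clone 11 (0.142) or 35 (0.161). Runx1 (-0.68), Bcor (-0.55) and Pik3r1 (-0.33) also fell, all on the log2 scale. The Pik3r1 call was lost without WT clone 28 (limma adjusted p = 0.268), 29 (0.140) or 36 (0.127) or R98S clone 11 (0.187), and also with libraries scaled to the same total (0.103) or upper quartile (0.108), without the intensity trend (0.108), without the expression filter (0.163) and with the shift of the nearest genes removed (0.109).

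Markers of other lineages moved as well. In the T cell list, the summed level was 64.5 to 122 normalized counts in WT and 197 to 251 in R98S clones. Of its 10 genes, 3 were tested and all 3 rose, where 10.7% of all tested genes were called higher. Cd3g of that list was too low to be tested, with 3.07, 3.22 and 43.0 in WT and 0.938, 1.02 and 1.85 in R98S clones, the opposite order, and WT clone 36 stood apart. Cd3d went from 13.3 ± 4.44 to 63.8 ± 21.5 and Cd247 from 12.4 ± 1.45 to 65.4 ± 23.7 (limma adjusted p = 0.0112 and 0.00706). The exons of Cd247 share 3007 bases with Pou2f1 on the opposite strand, which had 2.78 to 7.52 normalized counts over the clones. Lck went from 42.6 ± 13.7 to 94.3 ± 15.6 (limma adjusted p = 0.0355, and 0.121 without WT clone 28). The defining genes Cd3e, Cd4 and Ptcra had at most 3 reads in any library. In the B cell precursor list, the summed level was 1294 to 1405 in WT and 1644 to 1964 in R98S clones, with Cd79b called higher (log2 ratio 1.22, limma adjusted p = 0.0617). That call was lost without WT clone 29 (adjusted p = 0.151) or 36 (0.113) and without R98S clone 11 (0.177) or 13 (0.138). In the mast cell and myeloid list, the summed level was 25057 to 29756 in WT and 13833 to 17418 in R98S clones, nearly all of it Gata2, which fell with a log2 ratio of -0.86 (limma adjusted p = 0.00666). Cpa3 and Ms4a2 of that list were not called. Cpa3 went from 71.5 ± 53.1 to 192 ± 179, opposite to Gata2 (limma adjusted p = 0.372). Ms4a2 went from 105 ± 45.9 to 73.0 ± 35.4 (limma adjusted p = 0.464). Ptprc fell from 11217 ± 2636 to 4471 ± 1148 (log2 ratio -1.33, limma adjusted p = 0.00894). The part of these shifts in the results for the driver genes was not tested.

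**Figure D5:**
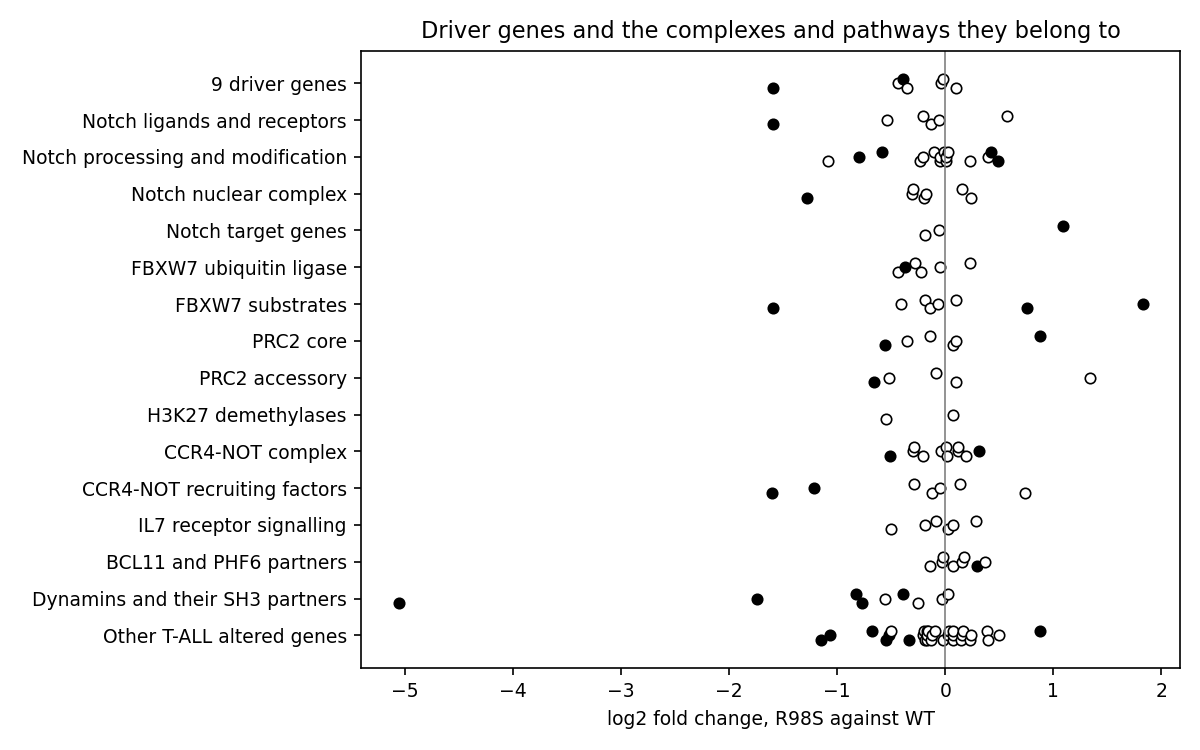
Log2 ratio, R98S against WT, of each tested gene in the 9 driver genes and in the lists of complexes and pathways around them; filled circles mark an adjusted p under 0.1, and points are offset vertically only for legibility. The dynamin list holds 5 filled circles, all below 0, with Itsn1 at -5.06, and the interleukin-7 receptor list holds none. The lists were chosen with earlier results of these data known.

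Compared per kilobase of exon, the driver genes spanned a wide range. Suz12 was the most abundant, with 1084 to 1409 normalized counts per kb over the 6 clones, above the range of Dnm2 (516 to 791). The ranges of Dnm2 and Ezh2 (348 to 652) overlapped, as did those of Ezh2 and Phf6 (299 to 412). Fbxw7 (152 to 282) and Cnot3 (178 to 232) came next and overlapped. Notch1 lay below all of these ranges, at 3.82 to 19, and Il7r and Bcl11b lay below 1 per kb and overlapped.

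The genes most like the members that fell were sought among 9504 genes with a mean of at least 100, by the root-mean-square difference of their centred log2 values over the 6 libraries. For Notch1 these were Icosl, the gene of a costimulatory ligand, with a difference of 0.15, and Qrfp, a neuropeptide gene, with 0.17, whereas Notch1 itself deviated from its mean by 0.88. Icosl had 544, 547 and 469 normalized counts in WT and 134, 266 and 156 in R98S clones, with R98S clone 13 again the nearest to WT. For Dnm2 they were Csnk1g2, a casein kinase gene, and March6, the gene of a membrane-bound ubiquitin ligase, each with 0.03, against 0.21 for Dnm2 itself. These likenesses are descriptions over libraries that fall into the same groups.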

How the data were processed

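Polyadenylated RNA of 3 WT and 3 R98S clones was sequenced from stranded libraries on an Illumina HiSeq instrument. Ribosomal and transfer RNA reads were removed with Bowtie2, the others were aligned to mm10 with TopHat, and primary alignments with a mapping quality of at least 10 were kept. Reads on exons were counted (HTSeq is named in the submitters' processing notes; whether strand was used is not given in the sources used here). Per gene the authors deposited a signal, their read count divided by a DESeq2 size factor. In every library 100% of values above 0 were whole multiples of the value of 1 read within 0.01, which gave back the reads. For WT clone 36 that value was 1.0008, too near 1 for an automatic test, but its values carry full decimals.

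Genes with a mean of at least 10 were tested with limma 3.58.1 (R 4.3.3) with an intensity trend on log2(value + 1), two-sided, with Benjamini-Hochberg adjustment over all 11550 genes and a threshold of 0.1. This scale understates changes of weak genes. The test was checked on simulated data. Intervals cover 95%. Replicates are single-cell clones, and the p-values measure the spread between them. No pair of libraries within a group agreed within counting error (lowest chi-square over its degrees of freedom 17.1). Alternatives were pseudocounts of 0.5 and 5, no filter or a minimum mean of 50, 3 other scalings, no trend and a threshold of 0.05. For removal of the local shift, log2 values were centred on the mean of each gene. Their median over the 30 nearest genes was then subtracted in each library before the fit. Further alternatives were each clone left out, and edgeR 4.0.16 and DESeq2 1.42.0 on the recovered reads. Coordinates and exon lengths are from GENCODE M21 (GRCm38), matched by symbol or synonym for 37721 of 41255 genes. Cnot9 is listed as Rqcd1 and Epop as E130012A19Rik.

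The members and lists were chosen with earlier results of these data known. Named are the members, the up to 3 called genes of largest change per list, Hes1, Dtx1, Myc, Rbpj, Eed, Ezh1, Cnot1, Il2rg, Jak3, Bcl11a and Ptprc, and the 2 genes most like each called member. Other genes were named after their values were seen. Some genes of the lists are counted but not reported here by name.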

Additional observations from a re-analysis of the deposited data

How the results depend on the processing

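No paired analysis was possible because no clone number is shared by both groups. The count of called genes, 2755 (1241 higher, 1514 lower), was 1722 (776 and 946) at an adjusted p under 0.05, as that threshold is stricter, and ranged from 1322 to 3213 (585 to 1436 higher, 737 to 1777 lower) when 1 clone was left out. The lowest count came from leaving out WT clone 28 (1457 for WT clone 29 and 1560 for R98S clone 11) and the highest from leaving out R98S clone 13. The cause was not tested. All other settings stayed within 1.5 times. The number of driver genes called was 2, and 1 to 3 without 1 clone: 1 without WT clone 28, WT clone 29 or R98S clone 11, and 3 without WT clone 36 or R98S clone 13. It was also 3 with DESeq2.

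Of 126 comparisons of single driver genes under 18 alternatives, 112 kept direction and call, 3 lost the call (Dnm2), 3 gained it (Fbxw7) and 8 reversed, all for genes not called. Phf6 was at 0.0019 with the same total, 0.022 with the same upper quartile and 0.099 with the local shift removed, and from -0.086 to 0.11 without 1 clone. Cnot3 was at 0.0047 with the same upper quartile and from -0.14 to 0.046 without 1 clone. Suz12 was at -0.11 with the local shift removed. Of the other named genes, Cnot1 (0.050), Cnot11 (-0.0036) and Myc (0.034) reversed with that shift removed, and Il2rg ranged from -0.28 to 0.22 without 1 clone. Maml2 ranged from -0.061 to 0.39 and Dnm1l from -0.098 to 0.054 without 1 clone, and Dnm1l was at 0.012 with the same upper quartile and 0.0074 with the local shift removed. Over 56 named genes, 883 of 1006 comparisons kept direction and call, 96 lost the call, 9 gained it and 18 reversed. Losses without 1 clone are given in the report, except those of Csnk1g2 and March6. Both lost the call without WT clone 28, WT clone 29 or R98S clone 11 (limma adjusted p between 0.151 and 0.206). Calls were also lost without the expression filter (Ccne2, Chd4, Cnot11, Csnk1g2, March6, Mfng, Numbl, Pik3r1 and Usp28). Without the intensity trend, those of Ccne2, Cd79b, Chd4, Cnot11, Csnk1g2, Lmo2, March6, Numbl and Pik3r1 were lost. With the local shift removed, those of Ccne2, Cnot1, Cnot11, Numbl and Pik3r1 were lost. Further losses came with the same upper quartile (Numbl and Pik3r1), the same total (Pik3r1), edgeR (Numbl) and DESeq2 (Cnot11). At an adjusted p under 0.05, Ccne2, Cd79b, Chd4, Cnot11, Csnk1g2, Lmo2, March6, Mfng, Numbl, Pik3r1 and Usp28 lost the call. Calls were gained by Kdm6a, Kdm6b and Rbx1 with the local shift removed. Depth limits Il7r, Bcl11b and 9 of the 12 Notch target genes, which had too few reads to be compared.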
